A study of Mus musculus with 12 samples.

Results

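Aminoacyl-tRNA synthetases, the enzymes that join each amino acid to its tRNA, were followed across resting and activated lymphocytes of the mouse. Members were genes of the array's probe annotation whose symbol is an amino acid letter followed by ars, with or without a closing 2, together with Farsa, Farsb and Eprs, and a gene with several probe sets was represented by the one with the highest mean. The rule found 34 of 19937 genes. Of these, 18 code for enzymes of the cytosol and 16, whose names end in 2, for enzymes of the mitochondrion. The cytosolic synthetase for alanine is not analysed here, because its probe set was shared with another gene.

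The data were 12 Affymetrix whole-transcript arrays of total RNA from the spleen of C57Bl/6 x FVB mice, 3 for each labelled group. The labelled activated B cells had been kept for 4 days with an antibody to CD40 and with IL4, and the labelled activated T cells for 4 days with antibodies to CD3 and CD28 and with IL2. The labelled resting B cells were mature CD43-negative cells and the labelled resting T cells mature B220-negative cells, taken on day 0. Neither the age and sex of the mice nor the number of animals behind each group's 3 arrays was stated in the labels or methods, so p-values measure the spread between these arrays only. By these labels, activated cells had been both cultured and stimulated, so these influences cannot be told apart.

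The lineage genes went against the labels in all 4 groups, so directions below are between groups as labelled. The mean over 14 T cell markers lay between 9.36 and 9.50 log2 on the arrays labelled activated B and between 9.90 and 10.1 on those labelled resting B, against 5.33 to 6.26 on those labelled activated T and 5.23 to 5.70 on those labelled resting T. The mean over 13 B cell markers ran the other way, from 5.05 to 5.45 on the labelled activated B arrays, from 11.5 to 11.6 on the labelled activated T arrays, from 7.75 to 8.99 on the labelled resting B arrays and from 9.67 to 9.97 on the labelled resting T arrays. Genes of dividing cells were high on the arrays labelled activated B (9.93 to 10.0 for the mean over 11 genes) and resting T (9.40 to 9.52), and low on those labelled activated T (6.23 to 6.66) and resting B (6.46 to 6.77). Means over 10 myeloid markers ran from 4.71 to 4.76 on the labelled activated B arrays, from 6.04 to 6.38 on the labelled activated T arrays, from 6.27 to 6.78 on the labelled resting B arrays and from 5.55 to 5.68 on the labelled resting T arrays. Means over 6 natural killer markers were highest on the labelled resting B arrays (8.21 to 8.79, against 5.28 to 7.11 on all others), and those over 4 erythroid markers lay between 4.74 and 5.41 on all arrays. Every array was affected, so no result could be given without such arrays. The isolation, culture and stimulus given above for each group follow the labels and are as uncertain as the labels.

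Each synthetase recognises 1 amino acid and the tRNAs that belong to it, and the charged tRNA is then carried to the ribosome by an elongation factor. Cytosolic and mitochondrial protein synthesis are served by separate nuclear genes for most amino acids. The genes Gars and Kars give rise to enzymes for both compartments, Eprs codes for a fused enzyme for glutamate and proline, and mitochondria make glutaminyl-tRNA by an indirect route that begins with Ears2. Several cytosolic enzymes are held together in a multisynthetase complex by scaffold proteins. Lymphocytes that leave rest grow before they divide and raise their protein synthesis, and cytosolic synthetase genes are known targets of ATF4, the transcription factor of the amino acid response, and of MYC.

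The start regions were searched for motifs of ATF4 and MYC, which were not part of the rule. Of the 34 members, 25 had a promoter in the RefSeq table (build GRCm38.p6, 250 bases before to 50 after the transcript start). The amino acid response element TGATGNAA, to which ATF4 binds with a C/EBP partner, was searched on both strands (TTNCATCA on the other strand) and was found in 4 of 11 cytosolic promoters (36.4%), in 0 of 15 mitochondrial promoters of 14 genes and in 3.97% of all 32851 promoters. The canonical E-box CACGTG, a site of MYC and other factors that reads the same on both strands, was found in 3 of 11 cytosolic promoters (27.3%, in Farsb, Iars and Tars), in 1 of 15 mitochondrial promoters (6.67%, in Ears2) and in 7.15% of all promoters. The motifs do not overlap each other in these promoters. A match is a description of these letters and was not measured as a binding site.

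To show where the response element lies, the 100 bases from 70 before to 30 after the transcript start are given 5′ to 3′ on the strand of the gene, with either motif in capitals. The 4 cytosolic genes chosen for holding the response element come first, the other 7 cytosolic promoters lacking it, and the mitochondrial counterparts of 3 of them follow. Counted from the transcript start, the first base of the element is at -30 in Gars (chr6:55037931-55038030, plus strand), at 8 in Iars (chr13:49682060-49682159, plus strand), at -15 in Tars (chr15:11399629-11399728, minus strand) and at 4 in Yars (chr4:129189833-129189932, plus strand). The windows of Iars2 (chr1:185329372-185329471, minus strand), Tars2 (chr3:95754948-95755047, minus strand) and Yars2 (chr16:16302895-16302994, plus strand) hold neither motif.
Gars: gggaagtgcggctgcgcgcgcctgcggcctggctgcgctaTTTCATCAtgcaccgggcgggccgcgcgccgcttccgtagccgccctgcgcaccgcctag
Iars: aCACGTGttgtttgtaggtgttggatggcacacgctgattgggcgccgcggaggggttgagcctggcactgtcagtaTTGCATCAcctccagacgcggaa
Tars: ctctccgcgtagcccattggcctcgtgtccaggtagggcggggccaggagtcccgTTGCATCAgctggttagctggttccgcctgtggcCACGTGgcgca
Yars: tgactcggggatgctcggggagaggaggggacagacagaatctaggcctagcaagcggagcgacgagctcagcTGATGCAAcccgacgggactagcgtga
Iars2: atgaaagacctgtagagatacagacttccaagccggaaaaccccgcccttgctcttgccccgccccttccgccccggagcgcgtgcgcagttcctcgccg
Tars2: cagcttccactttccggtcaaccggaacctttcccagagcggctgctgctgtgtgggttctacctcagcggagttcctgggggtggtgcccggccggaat
Yars2: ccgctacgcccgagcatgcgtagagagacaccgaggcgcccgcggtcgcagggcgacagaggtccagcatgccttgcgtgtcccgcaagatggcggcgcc

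All 34 members had a mean level above the background, which was set at 5.21 log2 and is the 95th percentile of 1027 olfactory receptor genes, a family that lymphocytes are not known for. The SD within a group had a median between 0.10 and 0.15 for the cytosolic genes and between 0.07 and 0.11 for the mitochondrial genes. The largest SD was 0.32, for both Nars on the labelled resting T arrays and Rars2 on the labelled resting B arrays. The plot of values by array shows 2 clusters of points for nearly every cytosolic gene and overlapping points for most mitochondrial genes.

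**Figure D1:**
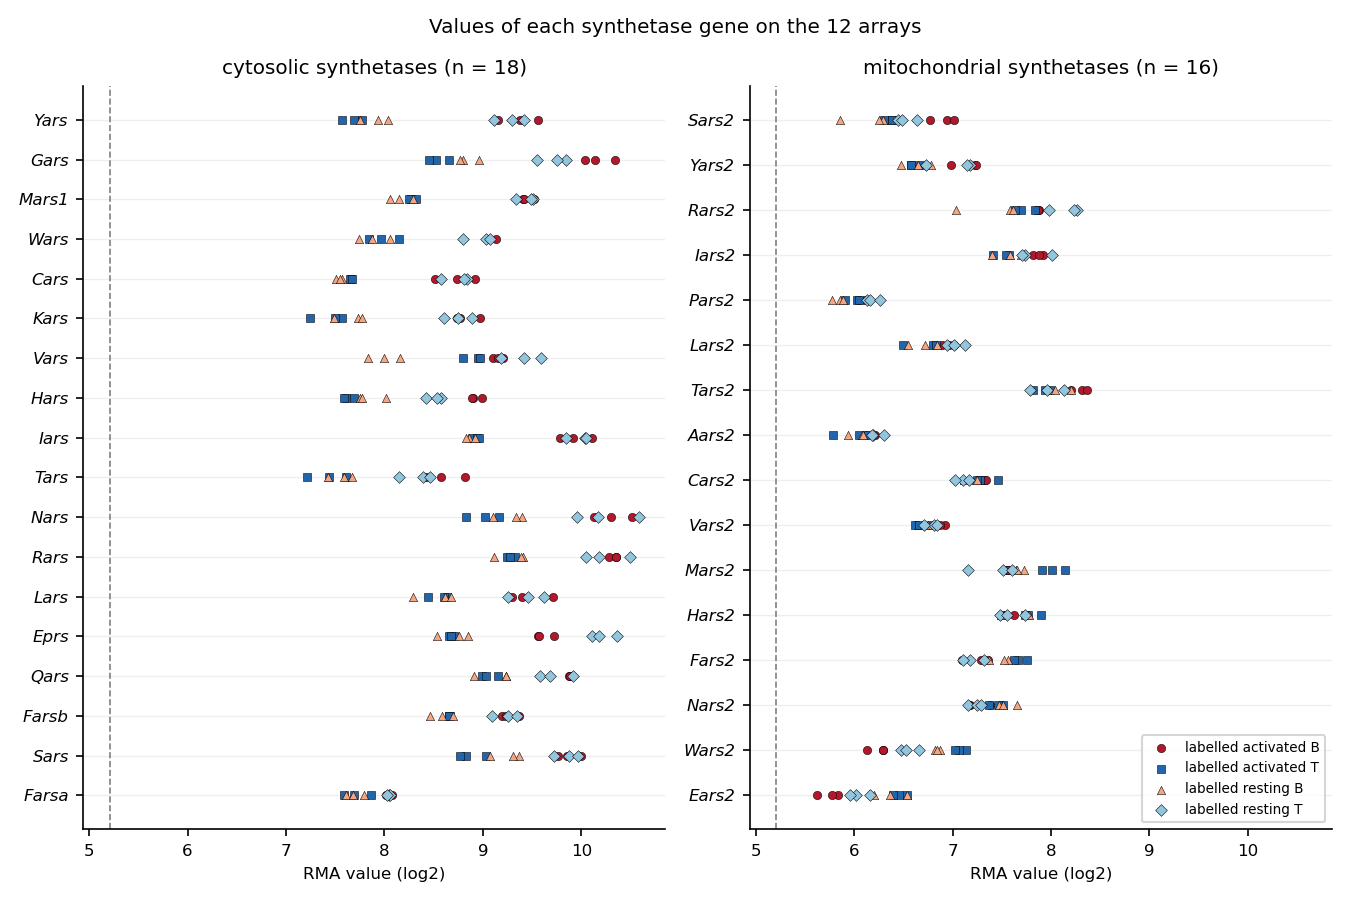
Each row is 1 gene, each point 1 of 12 arrays on the log2 scale of RMA, with symbols for the labelled groups (3 arrays each) and genes ordered from the highest to the lowest difference between the labelled activated and resting B arrays. The dashed line marks the background level of 5.21. In all 18 cytosolic genes the labelled activated B and resting T arrays lie to the right of the labelled activated T and resting B arrays, which holds for 5 of the 16 mitochondrial genes.

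The first comparison asked how synthetase RNA differed between the labelled activated and resting B arrays. All 18 cytosolic synthetases rose (limma, adjusted p at most 0.00543), where 19.7% of all genes tested rose and 36.5% changed in either direction. Their log2 differences ran from 0.35 for Farsa to 1.46 for Yars, with a median of 1.06 beside -0.02 over all genes. In all 18 genes, the lowest labelled activated B array was above the highest labelled resting B array, as in 23.9% of all genes. Centring each array on its median raised the median difference of all genes by 0.11 and the share of higher genes among all calls to 66.6%, against 54.1% on the deposited values, and left all 18 cytosolic calls in place. Of 10 myeloid markers 0 rose and 7 fell in this comparison, with a median of -1.34, and of 6 natural killer markers 0 rose and 4 fell, and their part in the synthetase result was not tested.

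Yars, the tyrosyl-tRNA synthetase, measured 9.56, 9.38 and 9.15 log2 on the labelled activated B arrays, against 7.76, 7.93 and 8.04 on the labelled resting B arrays. The groups stood more than 1 log2 unit apart, and the fitted difference of 1.46 ± 0.12 (SE, n = 3 each) was the largest of the cytosolic genes in this comparison (limma, adjusted p = 3.93e-08). Gars, which charges glycine in both compartments, measured 10.35, 10.13 and 10.04 on the labelled activated B arrays, against 8.80, 8.76 and 8.96 on the labelled resting B arrays. Its difference of 1.33 ± 0.11 was the second in size (adjusted p = 4.11e-08). Mars1 charges methionine and also supplies the initiator tRNA with which every protein chain begins. It measured 9.52, 9.40 and 9.42 on the labelled activated B arrays, against 8.06, 8.15 and 8.29 on the labelled resting B arrays, a difference of 1.28 ± 0.09 (adjusted p = 7.6e-09).

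Wars, the tryptophanyl-tRNA synthetase, is known in human cells as a gene induced by interferon gamma. It measured 9.14, 9.06 and 9.05 on the labelled activated B arrays, against 7.74, 7.87 and 8.05 on the labelled resting B arrays, a difference of 1.19 ± 0.11 (limma, adjusted p = 1.66e-07). At the low end stood the genes of phenylalanyl-tRNA synthetase, an enzyme built from the products of Farsa and Farsb. Farsa measured 8.03, 8.02 and 8.08 on the labelled activated B arrays, against 7.61, 7.68 and 7.79 on the labelled resting B arrays, which did not overlap. Its difference was 0.35 ± 0.09 (adjusted p = 0.00543), and that of Farsb was 0.68 ± 0.10 (adjusted p = 2.17e-05). Sars, for serine, also differed by under 0.7 (0.63 ± 0.11), while the remaining 11 genes lay between 0.76 (Qars) and 1.18 (Cars).

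In the labelled T cells the same genes stood the other way round, as did all 11 genes of dividing cells. All 18 cytosolic synthetases fell on the labelled activated T arrays (limma, adjusted p at most 0.0104), where 17.8% of all genes fell and 33.7% changed. The log2 differences ran from -1.60 for Yars to -0.32 for Farsa, with a median of -0.98 beside 0.02 over all genes, and no array of either group overlapped in any of the 18 genes, against 21.1% of all genes not overlapping in this direction. Centring on the array medians moved the median of all genes by -0.10 and the share of higher genes among all calls to 33.9%, against 47.3% on the deposited values, and all 18 cytosolic genes were still called. Of the myeloid markers 5 of 10 rose and 0 fell, with a median of 0.44, and of the natural killer markers 3 of 6 rose and 1 fell, and their part was not tested. Farsa lost its call without the labelled activated T array of replicate 6 (adjusted p = 0.0577), and no other cytosolic call of this comparison was lost in any of the other settings tried.

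Yars measured 7.77, 7.57 and 7.69 log2 on the labelled activated T arrays, against 9.11, 9.30 and 9.42 on the labelled resting T arrays, a difference of -1.60 ± 0.12 (limma, adjusted p = 1.36e-08). Eprs, the fused enzyme for glutamate and proline, came next. It measured 8.65, 8.71 and 8.67 on the labelled activated T arrays, against 10.11, 10.36 and 10.18 on the labelled resting T arrays, a difference of -1.54 ± 0.10 (adjusted p = 3.28e-09). Kars, for lysine, measured 7.57, 7.50 and 7.24 on the labelled activated T arrays, against 8.60, 8.74 and 8.89 on the labelled resting T arrays, a difference of -1.31 ± 0.12. Nars, for asparagine, measured 9.16, 9.02 and 8.83 on the labelled activated T arrays, against 9.96, 10.17 and 10.59 on the labelled resting T arrays, and its difference of -1.24 ± 0.15 carried the widest error of the 18 genes.

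Vars, the valyl-tRNA synthetase, was an exception in level. It measured 9.10, 9.21 and 9.15 on the labelled activated B arrays, 8.95, 8.97 and 8.80 on the labelled activated T arrays, 7.99, 7.84 and 8.16 on the labelled resting B arrays and 9.42, 9.59 and 9.18 on the labelled resting T arrays. The labelled activated T arrays, low in the other cytosolic genes, were thus close to the 2 high groups, and only the labelled resting B arrays stood far below. The difference of labelled activated T minus resting T was -0.49 ± 0.11 (limma, adjusted p = 0.00245), and that of labelled activated T minus resting B was 0.91 ± 0.11 (adjusted p = 9.54e-06).

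**Figure D2:**
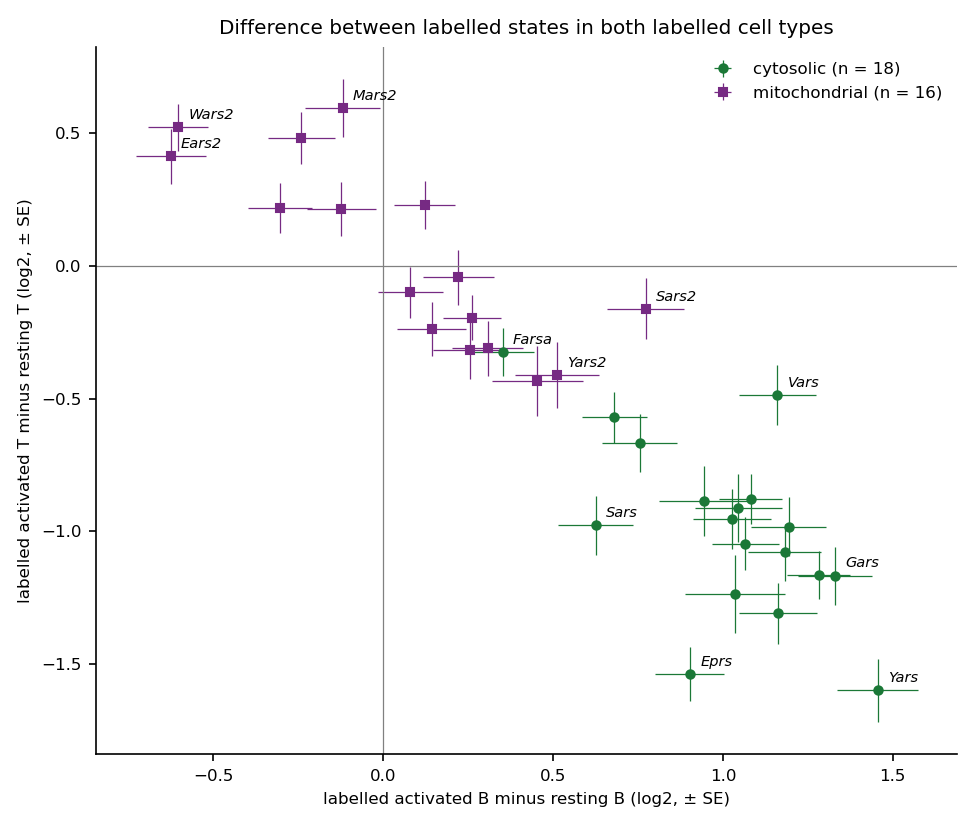
Each point is 1 synthetase, with the log2 difference between labelled activated and resting B arrays on the horizontal axis and that between labelled activated and resting T arrays on the vertical axis, bars giving the SE of the fit (3 arrays per group). The 18 cytosolic genes all lie at the lower right, from Farsa (0.35 and -0.32) to Yars (1.46 and -1.60), and the 16 mitochondrial genes lie on both sides of 0 on both axes.

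Between the labelled cell types, the cytosolic genes were set apart in both states. Labelled activated B arrays were higher than labelled activated T arrays in 17 of 18 genes (limma), where 21.8% of all genes were higher and 40.7% differed, with a median log2 difference of 1.05 beside -0.03 over all genes. The exception was Vars (0.25 ± 0.11, adjusted p = 0.0987), which was called after centring on the array medians (0.38, adjusted p = 0.0167) and in a fit of these 6 arrays alone (adjusted p = 0.0437). That centring also moved the share of higher genes among all calls of this comparison to 68.5%, against 53.5% on the deposited values. Labelled resting B arrays were lower than labelled resting T arrays in 18 of 18 genes, where 19% of all genes were lower and 35.1% differed, with a median of -0.95. These comparisons use the same arrays as the ones above in other pairs, so their values are not independent of them.

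The remaining pairs of groups were close. Labelled activated B and resting T arrays differed in 3 of 18 cytosolic genes, where 23% of all genes differed, 13% being higher and 9.93% lower. Gars (0.46 ± 0.11, limma, adjusted p = 0.00475) and Hars, for histidine (0.42 ± 0.09, adjusted p = 0.00299), were higher on the labelled activated B arrays, while Eprs was lower (-0.60 ± 0.10, adjusted p = 0.000256). Labelled activated T and resting B arrays differed in 2 of 18 genes, where 18.5% of all genes differed, 8.82% being higher and 9.68% lower. These were Vars, given above, and Sars, which was lower on the labelled activated T arrays (-0.37 ± 0.11, adjusted p = 0.0245). Sars lost this call when any of 4 of the arrays was left out, and a p that misses the threshold does not show that the other genes were equal.

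The order of the 4 levels was accordingly the same in outline for every cytosolic gene. The labelled activated B and resting T arrays held the 2 highest group means in 18 of 18 genes, with the labelled activated B mean first in 14 and the labelled resting T mean first in 4. The labelled activated T mean was lowest in 10 genes and the labelled resting B mean in 8. Apart from the genes named in the preceding comparison, no difference within the high pair or within the low pair passed the test. Each of the 6 arrays of the high pair was above each of the 6 of the low pair in all 18 genes, an arrangement seen in 12% of all genes, and the same pair of groups was high in the genes of dividing cells.

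The test of the difference itself, the interaction, took the difference between labelled activated and resting B arrays minus that between labelled activated and resting T arrays. It was positive and called in 18 of 18 cytosolic genes (limma), where 21.9% of all genes were called positive and 42.7% in either direction. The log2 values ran from 0.68 ± 0.13 for Farsa to 3.06 ± 0.17 for Yars, with a median of 2.05 beside -0.03 over all genes. Centring on the array medians moved this median of all genes by 0.21 and the share of positive calls to 67.6%, against 51.2% on the deposited values, and moved no cytosolic gene out of the calls.

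The values were also set out by membership of the multisynthetase complex and by structural class. The 7 measured cytosolic genes whose enzymes belong to the complex (Eprs, Iars, Kars, Lars, Mars1, Qars and Rars) had a median log2 difference of 1.03 between labelled activated and resting B arrays, and the 11 genes outside it had 1.08. Between labelled activated and resting T arrays the medians were -1.05 for the complex and -0.98 for the genes outside it. Synthetases fall into 2 structural classes with unrelated catalytic cores. The 9 class I genes of the cytosol had medians of 1.16 in the labelled B cells and -0.98 in the labelled T cells, and the 8 class II genes had 1.04 and -0.95, Eprs holding a core of each class. Iars, for isoleucine, was the member with 2 probe sets, and the one not used had values of 9.15, 9.06 and 9.09 on the labelled activated B arrays and 7.60, 7.71 and 7.81 on the labelled resting B arrays, the same order as the one used.

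The mitochondrial synthetases showed no common direction. Between labelled activated and resting B arrays 5 of 16 rose and 3 fell (limma), where 19.7% of all genes rose and 16.7% fell. The median log2 difference was 0.13 and the range -0.63 to 0.77. Between labelled activated and resting T arrays 4 rose and 4 fell, where 15.9% of all genes rose and 17.8% fell, with a median of -0.07 and a range of -0.43 to 0.59. In the labelled B cells 4 of the 8 calls (Iars2, Nars2, Pars2 and Rars2), and in the labelled T cells 4 of the 8 (Iars2, Lars2, Rars2 and Yars2), were lost in at least 1 of the 20 alternatives.

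Among those that rose on the labelled activated B arrays, Sars2, the mitochondrial enzyme for serine, had the largest difference. It measured 6.77, 6.94 and 7.01 log2 on the labelled activated B arrays, against 6.29, 5.86 and 6.25 on the labelled resting B arrays, a difference of 0.77 ± 0.11 (limma, adjusted p = 3.53e-05). Its labelled activated T minus resting T difference of -0.16 ± 0.11 was not called (adjusted p = 0.334). Yars2, for tyrosine, measured 7.22, 6.98 and 7.24 on the labelled activated B arrays, 6.67, 6.58 and 6.57 on the labelled activated T arrays, 6.48, 6.65 and 6.78 on the labelled resting B arrays and 6.73, 7.18 and 7.15 on the labelled resting T arrays. It followed the order of the cytosolic genes at a smaller size, with 0.51 ± 0.12 in the labelled B cells and -0.41 ± 0.12 in the labelled T cells. One labelled resting T array of Yars2 overlapped the range of the labelled resting B arrays.

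Rars2, for arginine, and Iars2, for isoleucine, ran the same way. Rars2 differed by 0.45 ± 0.13 between labelled activated and resting B arrays and by -0.43 ± 0.13 between labelled activated and resting T arrays. One labelled resting B array of Rars2, at 7.04, lay well below the other two at 7.58 and 7.61, and without it the difference in the labelled B cells was 0.27 and not called (limma, adjusted p = 0.0705). Iars2 differed by 0.31 ± 0.10 in the labelled B cells and by -0.31 ± 0.10 in the labelled T cells (limma, adjusted p = 0.0287 and 0.0294). With the replicate number as a block these adjusted p-values were 0.0531 and 0.0548, so that Iars2 was not called in either. Pars2, for proline, rose by 0.26 ± 0.09 in the labelled B cells.

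Wars2, the mitochondrial tryptophanyl-tRNA synthetase, went against the cytosolic genes. It measured 6.29, 6.30 and 6.13 log2 on the labelled activated B arrays, 7.14, 7.07 and 7.03 on the labelled activated T arrays, 6.87, 6.82 and 6.85 on the labelled resting B arrays and 6.47, 6.66 and 6.53 on the labelled resting T arrays. All arrays of the labelled activated T and resting B groups were above all others, and the differences were -0.60 ± 0.09 in the labelled B cells (limma, adjusted p = 3.02e-05) and 0.52 ± 0.09 in the labelled T cells (adjusted p = 0.000146). Ears2, for glutamate, had the same arrangement. It measured 5.83, 5.77 and 5.62 on the labelled activated B arrays, 6.45, 6.53 and 6.40 on the labelled activated T arrays, 6.54, 6.20 and 6.37 on the labelled resting B arrays and 6.02, 6.16 and 5.96 on the labelled resting T arrays, with differences of -0.63 ± 0.10 and 0.41 ± 0.10. Nars2, for asparagine, fell by 0.30 in the labelled B cells (adjusted p = 0.0177).

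Mars2 and Fars2 rose on the labelled activated T arrays and were not called in the labelled B cells. Mars2, for methionine, measured 8.14, 8.01 and 7.91 log2 on the labelled activated T arrays, against 7.51, 7.16 and 7.61 on the labelled resting T arrays, a difference of 0.59 ± 0.11 (limma, adjusted p = 0.000351). In the labelled B cells its difference was -0.12 ± 0.11 (adjusted p = 0.467). Fars2, for phenylalanine, differed by 0.48 ± 0.10 in the labelled T cells and by -0.24 ± 0.10 in the labelled B cells (adjusted p = 0.0695). The interaction was called for both (limma, adjusted p = 0.00108 for Mars2 and 0.000362 for Fars2). Their difference between labelled activated and resting arrays was thus not the same in the labelled B cells as in the labelled T cells.

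Over all 16 mitochondrial genes the interaction was called positive in 7 and negative in 5 (limma), where 21.9% of all genes were positive and 20.9% negative, with a median of 0.22. Aars2, for alanine, had the weakest of these calls (0.38 ± 0.14, adjusted p = 0.0409) and lost it with the replicate number as a block (adjusted p = 0.0518). Cars2, Hars2, Tars2 and Vars2 were not called. Every array of the labelled activated B and resting T groups was above every array of the other 2 groups in 5 of 16 genes, and the reverse held in 4, beside 12% and 8.05% of all genes. In the direct comparisons of labelled cell types, 4 genes were higher and 4 lower on labelled activated B than on labelled activated T arrays, where 21.8% of all genes were higher and 18.9% lower. After centring on the array medians these were 8 and 4, and after quantile normalization 4 and 6. On labelled resting B against resting T arrays 4 were higher (Ears2, Fars2, Nars2 and Wars2) and 5 lower, where 16.1% were higher and 19% lower, and with the median centring 0 were higher and 7 lower. Labelled activated B and resting T arrays differed in 4 genes (23% of all genes), and labelled activated T and resting B arrays in Mars2 (0.35 ± 0.11, 18.5% of all genes). Each of these 5 calls was lost in at least 1 alternative, and the 4 genes became 0 without the labelled activated B array of replicate 3.

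For 12 amino acids the cytosolic and the mitochondrial gene were paired. The change of one could thus be set against that of the other on the same arrays. Phenylalanine (cytosolic genes Farsa and Farsb) and glutamate and proline (both served by Eprs) also had genes of both compartments measured but were not paired. The cytosolic minus mitochondrial log2 value was higher on each labelled activated B array than on any labelled resting B array for 11 of 12 amino acids. On the labelled activated T arrays it was lower than on any labelled resting T array for 12 of 12. The exact two-sided permutation p of each such pair was 0.1, the smallest that 3 against 3 arrays allow, so no single pair could pass 0.05 (0.104 after Benjamini-Hochberg adjustment over 24 tests). Serine was the exception in the labelled B cells, where Sars differed by 0.63 and Sars2 by 0.77, a gap of -0.15 with overlapping arrays (exact permutation p = 0.6 before and after adjustment).

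Among the paired amino acids, tryptophan had the widest gap in the labelled B cells. Wars differed by 1.19 and Wars2 by -0.60, a gap of 1.80. Among these pairs methionine had the widest gap in the labelled T cells, with -1.17 for Mars1 and 0.59 for Mars2, a gap of -1.76. Hars and Hars2 are next to each other in the order of protein-coding genes, the one such pair among the members. Hars measured 8.99, 8.90 and 8.89 log2 on the labelled activated B arrays and 7.75, 7.77 and 8.02 on the labelled resting B arrays, a difference of 1.08 ± 0.09. Hars2 measured 7.51, 7.54 and 7.63 on the labelled activated B arrays and 7.50, 7.77 and 7.78 on the labelled resting B arrays, which overlapped (-0.12 ± 0.10, limma, adjusted p = 0.414).

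**Figure D3:**
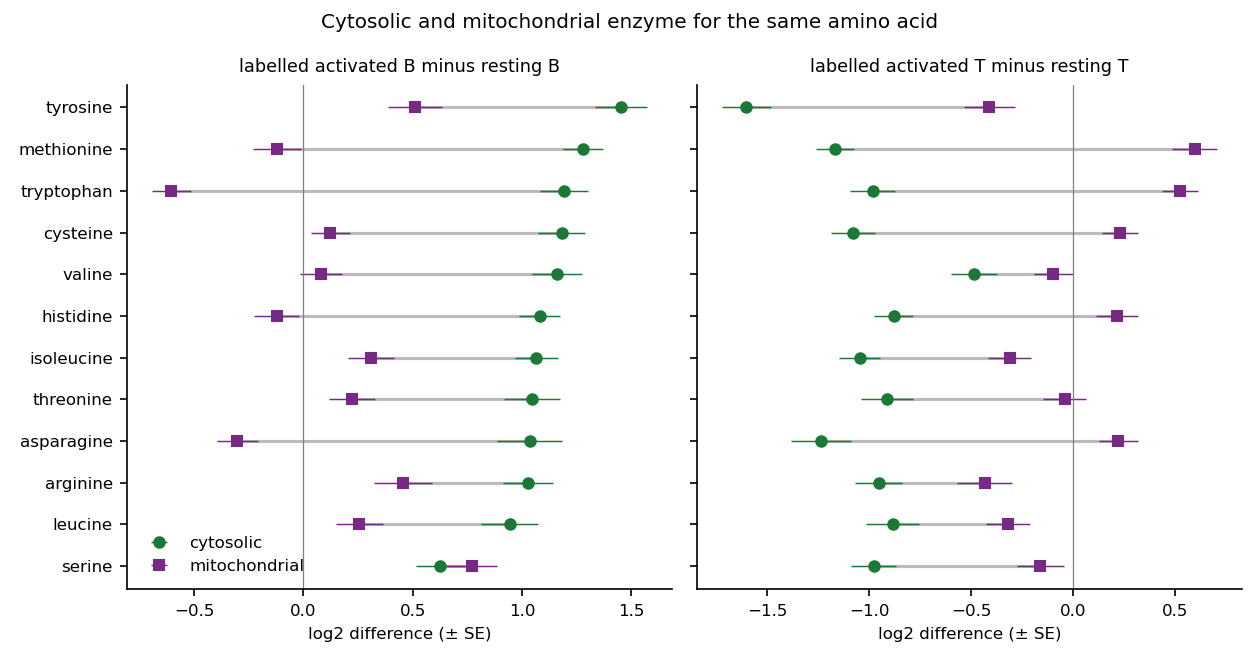
For each of 12 amino acids the log2 difference (± SE, 3 arrays per group) of the cytosolic gene (circles) and of the mitochondrial gene (squares) is shown, between labelled activated and resting B arrays on the left and between labelled activated and resting T arrays on the right. The circles lie to the right of the squares on the left side except for serine (0.63 and 0.77), and to the left of them in every row on the right side.

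Genes that work beside the synthetases were described from lists chosen with earlier results of these data known. Their counts are therefore a description and no independent support. Of all genes, 19.7% rose and 16.7% fell in the labelled B cells. In the labelled T cells 15.9% of all genes rose and 17.8% fell. These shares stand beside each list below. The scaffold genes of the multisynthetase complex, Aimp1, Aimp2 and Eef1e1, rose in the labelled B cells (3 of 3, with 0.83, 0.91 and 0.57) and fell in the labelled T cells (3 of 3, with -0.95, -0.95 and -0.85). Of the genes for tRNA processing and export 10 of 14 rose in the labelled B cells and 0 fell, while in the labelled T cells 10 fell and 1, Elac1, rose. Xpot, the exporter of tRNA from the nucleus, differed by 1.06 ± 0.11 and by -0.77 ± 0.11. Of the 12 RNA polymerase III genes, which serve the transcription of tRNA genes, 3 were higher and 2 lower in the labelled B cells. These counts were close to the shares of all genes. In the labelled T cells 4 were higher and 2 lower. Brf1, an initiation factor of that polymerase, ran against the synthetases (-0.78 ± 0.09 and 0.95 ± 0.09), as did Maf1, its repressor (-0.45 ± 0.10 and 0.56 ± 0.10).

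Of the amino acid response genes, which include the enzymes and transporters that ATF4 is known to raise, 22 of 27 rose and 0 fell in the labelled B cells, and 1 rose and 18 fell in the labelled T cells. Asns, the asparagine synthetase, differed by 4.23 ± 0.26 and by -4.12 ± 0.26. Psat1, of serine synthesis, differed by 2.84 and by -2.63, and Slc7a5, a transporter of large neutral amino acids, by 2.52 and by -2.64. Atf4 itself differed by 0.31 ± 0.10 in the labelled B cells (limma, adjusted p = 0.0273) and by -0.09 ± 0.10 in the labelled T cells, which was not called. All 14 listed MYC target genes, Myc included, rose in the labelled B cells and fell in the labelled T cells. Myc differed by 1.24 ± 0.10 and by -0.99 ± 0.10. The 11 genes of dividing cells did the same at a larger size (Mki67, 4.02 and -3.87), and their part in the synthetase result was not tested.

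Of the cytosolic elongation factors, 1 of 5 rose in the labelled B cells and 4 fell in the labelled T cells. Eif5a accounted for the rise (1.65 ± 0.12) and also fell most (-1.60 ± 0.12), while Eef1a1, the carrier of charged tRNA, was called in neither (0.04 and -0.20). The partners of the mitochondrial enzymes had 6 of 11 higher and 0 lower in the labelled B cells and 2 higher and 4 lower in the labelled T cells. The elongation factor genes Tsfm (0.82 and -0.80), Tufm (0.68 and -0.70) and Gfm1 (0.92 and -0.63) ran with the cytosolic synthetases. Qrsl1, a subunit of the amidotransferase that completes glutaminyl-tRNA in mitochondria, was not called in the labelled B cells (0.13) and rose in the labelled T cells (0.60 ± 0.09). In both comparisons the list counts stand beside 36.5% of all genes called in the labelled B cells and 33.7% in the labelled T cells.

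**Figure D4:**
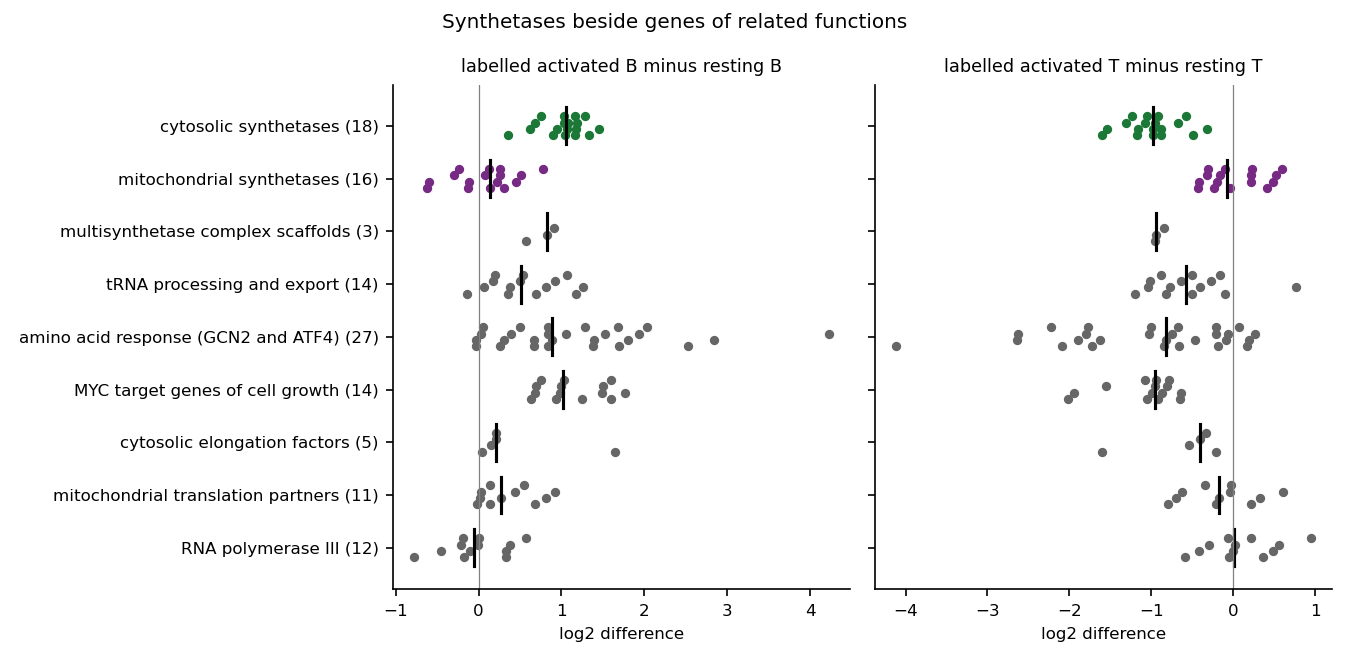
Each point is 1 gene and each bar the median of its list, on the log2 scale, between labelled activated and resting B arrays on the left and between labelled activated and resting T arrays on the right, with the number of genes in brackets. The cytosolic synthetases (medians 1.06 and -0.98) and the MYC target genes lie wholly to the right of 0 on the left side and wholly to the left of 0 on the right side, while mitochondrial synthetases and RNA polymerase III genes spread across 0.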

How the data were processed

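Total RNA of 12 mouse splenic lymphocyte samples was measured on Affymetrix whole-transcript arrays. The values deposited by the authors are log2 signals for each probe set, and the submitters' processing notes name RMA, whose version is not given in the sources used here. RMA brings all arrays to a common distribution, so a shift of most genes at once is not seen, and low values are compressed. Array medians lay between 5.50 and 5.68. Arrays hold no read depth, and their number limits the precision.

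The platform annotation gave a single symbol to 21640 of the 34760 probe sets, and the one with the highest mean was kept for each of 19937 genes. That annotation can be old, and probe sets listing several symbols named no gene. Group means were compared by lmFit and eBayes of limma 3.58.1 under R 4.3.3, with 1 mean per labelled group over all 12 arrays, 7 comparisons and Benjamini-Hochberg adjustment over all genes, at a threshold of 0.05. No set test was used. All members were described. Genes of the other lists named with values were taken from the first 4 measured of each list and the 3 with the largest interaction. Not all of these are named, so the named genes do not stand for their lists. The members and lists were chosen with earlier results of these data known. The fit was also tested on simulated data with changes put in.

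Replicate numbers are shared between activated and resting samples of a labelled cell type. Over 12170 genes, the r between deviations of same-numbered labelled B samples was -0.06, 0.06 and 0.25. For labelled T samples it was 0.22, 0.16 and 0.23, which met the rule for pairing of every r over 0.1. Once genes linked to sex had been dropped, r was 0.02, 0.09 and 0.19 for T and -0.12, -0.02 and -0.00 for B. The rule was then met in neither, so the labelled T cells met it only with those genes included. This check does not settle whether same-numbered samples came from the same animals. Alternatives were other scalings, filters and fits, a block by replicate number, and fits that each lacked 1 array. Promoter letters came from RefSeq. Python 3.11.15 with pandas 2.3.3, scipy 1.17.1 and matplotlib 3.10.9 served for summaries and plots.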

Additional observations from a re-analysis of the deposited data

Results flagged for a closer look

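For 30 of the 34 synthetases and for the 3 scaffold genes of the multisynthetase complex, the difference between labelled activated and resting arrays was not the same in the labelled B cells as in the labelled T cells, by the limma interaction test. The values below are the log2 difference in the labelled B cells minus that in the labelled T cells.

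In the multisynthetase complex the value was 2.44 for Eprs, 2.11 for Iars, 2.47 for Kars, 1.83 for Lars, 2.45 for Mars1, 1.42 for Qars and 1.98 for Rars. Its scaffold genes had 1.77 (Aimp1), 1.86 (Aimp2) and 1.42 (Eef1e1). Of the cytosolic enzymes outside the complex, Yars had 3.06, Gars 2.50, Nars 2.27, Cars 2.26 and Wars 2.18. Hars and Tars each had 1.96, Vars had 1.65, Sars 1.60, Farsb 1.25 and Farsa 0.68. All of these genes were higher on labelled activated than on resting B arrays and lower on labelled activated than on resting T arrays.

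Of the mitochondrial enzymes, 7 had positive values, with 0.93 for Sars2, 0.92 for Yars2, 0.89 for Rars2, 0.62 for Iars2, 0.57 for Lars2, 0.46 for Pars2 and 0.38 for Aars2. The other 5 had negative values, with -1.13 for Wars2, -1.04 for Ears2, -0.72 for Fars2, -0.71 for Mars2 and -0.52 for Nars2. After centring on the array medians the value of Nars2 was -0.31 and not called (limma, adjusted p = 0.0917). Since 42.7% of all genes were called by this test, a call alone does not set a gene apart. Lineage genes went against the labels of all 4 groups. All 11 genes of dividing cells were called positive by the same test, with a median of 6.72. They were low on the labelled activated T arrays and high on the labelled resting T arrays. Both the call and the sign of each value therefore hold only for the groups as labelled. They do not show that B and T cells differ in their response to activation.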

How the results depend on the processing

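Across 8 alternatives of processing and 12 fits that each left out 1 array, no difference of a synthetase reversed after having been called. The scaffold genes were not followed across these alternatives. Of the cytosolic calls 18 of 18 in the labelled B cells, 17 of 18 in the labelled T cells and 18 of 18 by interaction were kept under every alternative. The counts of mitochondrial calls depended on single arrays, and the cause was not tested. Between labelled activated and resting B arrays 5 to 8 mitochondrial genes were called when 1 array was left out (8 with all arrays), with 5 lacking the labelled activated B array of replicate 3. Between labelled activated and resting T arrays 4 to 9 were called (8 with all), with 4, none of them lower, lacking the labelled resting T array of replicate 5, and 5 lacking that of replicate 6 or the labelled activated T array of replicate 6. Between labelled resting B and resting T arrays 5 to 9 were called (9 with all), with 5 lacking the labelled resting T array of replicate 4. Between labelled activated B and resting T arrays 0 to 5 were called (4 with all), with 0 or 1 lacking the labelled activated B array of replicate 3 or 2, 1 lacking the labelled resting T array of replicate 4 and 2 lacking that of replicate 5 or 6. Between labelled activated T and resting B arrays 0 to 1 mitochondrial genes (1 with all) and 1 to 2 cytosolic genes (2 with all) were called. The mitochondrial call of that comparison was lost without any labelled resting B array and without the labelled activated T arrays of replicates 4 and 5, and the cytosolic call, Sars, without the labelled resting B arrays of replicates 2 and 3 and the labelled activated T arrays of replicates 5 and 6. That mitochondrial count was also 0 after centring on the 75th percentile, 2 after quantile normalization and 2 among genes above the background level.

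With the replicate number as a block, cytosolic counts stayed at 18 in the labelled B cells, in the labelled T cells and for the interaction, and mitochondrial counts were 7, 7 and 11, against 8, 8 and 12 without it. The split of calls moved with the scaling among the mitochondrial genes and among all genes. After centring on the array medians 7 were higher and 2 lower in the labelled B cells and 4 higher and 6 lower in the labelled T cells, and after quantile normalization 4 and 4, and 7 and 2. Among all called genes, the share that was higher was 66.6% and 33.9% after median centring, 47.4% and 52.7% after quantile normalization, and 54.1% and 47.3% on the deposited values.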

Other observations

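Proteins related to the synthetases but outside the rule were measured as well. Of 4 such genes, 3 rose in the labelled B cells and 0 fell, where 19.7% of all genes rose and 16.7% fell. In the labelled T cells 0 rose and 2 fell, where 15.9% of all genes rose and 17.8% fell. Tarsl2, which codes for a second threonyl-tRNA synthetase of the cytosol, differed by 0.43 ± 0.10 in the labelled B cells (limma, adjusted p = 0.0024) and by 0.04 ± 0.10 in the labelled T cells (adjusted p = 0.846). Aarsd1, an editing protein that clears wrongly charged alanyl-tRNA, differed by 0.96 ± 0.12 and by -0.54 ± 0.12. Dtd2 differed by 0.60 ± 0.12 and by -0.51 ± 0.12, and its relative Dtd1 was called in neither (0.16 and 0.17).

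Genes of the interferon gamma response, to which Wars belongs in human cells, were set beside Wars. Of 8 measured genes, 7 rose in the labelled B cells and 0 fell, and 0 rose and 5 fell in the labelled T cells, beside 36.5% and 33.7% of all genes called in either direction. Psmb9, a subunit of the immunoproteasome, differed by 0.72 ± 0.10 and by -1.44 ± 0.10. Irf1, a transcription factor of that response, was called in neither (-0.22 and -0.23), while Wars itself differed by 1.19 and by -0.98.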
